A study of Mus musculus with 3 samples.

Results

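The transthyretin gene Ttr was examined for binding of HNF4A and FOXA2 in hepatoblasts, fetal liver cells that give rise to hepatocytes and cholangiocytes. All peaks overlapping a window of 100 kb around Ttr were taken, at chr18:20770000-20870000 in the mouse build mm9. The window held 6 of 11703 HNF4A peaks, 3 of 9338 FOXA2 peaks and 0 of 1263 input regions, so 9 of 21041 ChIP peaks were members. The window was placed around a gene already known as a target of both factors. Ttr lies on the plus strand, and its start was taken as position 20823700 and its end as 20832900, both rounded to 100 bp. These positions came with the definition of the window and were not read from an annotation of mm9.

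Chromatin came from pooled wildtype C57BL/6 livers at embryonic day 14.5, from which DLK1-positive cells had been purified with magnetic beads. DLK1 is a surface protein of hepatoblasts. There were 3 libraries: HNF4A ChIP, FOXA2 ChIP and input chromatin that had not been immunoprecipitated. Each group was 1 library, so no value below has a replicate error and no test between groups was made. Binding rather than expression was measured, so the purity of the sorted cells was not checked against marker genes.

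Transthyretin is a plasma protein that carries thyroxine and, with retinol-binding protein, retinol; liver and choroid plexus are its main sources. The promoter of the mouse gene and an enhancer upstream of it served to define several liver-enriched transcription factors, among them the forkhead proteins now called FOXA and the nuclear receptor HNF4A. FOXA2 can bind its sites in closed chromatin, and HNF4A is required for much of the hepatocyte programme. In the order of RefSeq genes on GRCm38.p6, the desmosomal cadherin gene Dsg2 and the long noncoding RNA Gm16090 come before Ttr. The pseudogene Gm10269 and the galactosyltransferase gene B4galt6 come after it. Gm16090 overlaps Ttr in that table.

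Both factors occupied 3 common positions at Ttr: over its start, 1.7 kb upstream and 23.4 kb upstream. HNF4A alone had 3 further peaks, centred 5.0 kb, 22.2 kb and 53.8 kb upstream. Thus 3 of 6 HNF4A peaks and 3 of 3 FOXA2 peaks overlapped the other factor by at least 1 bp, against 24.4% of the whole HNF4A list and 30.7% of the whole FOXA2 list. No FOXA2 peak of the window stood alone. With so few peaks these counts describe the locus and were not tested against the lists.

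**Figure D1:**
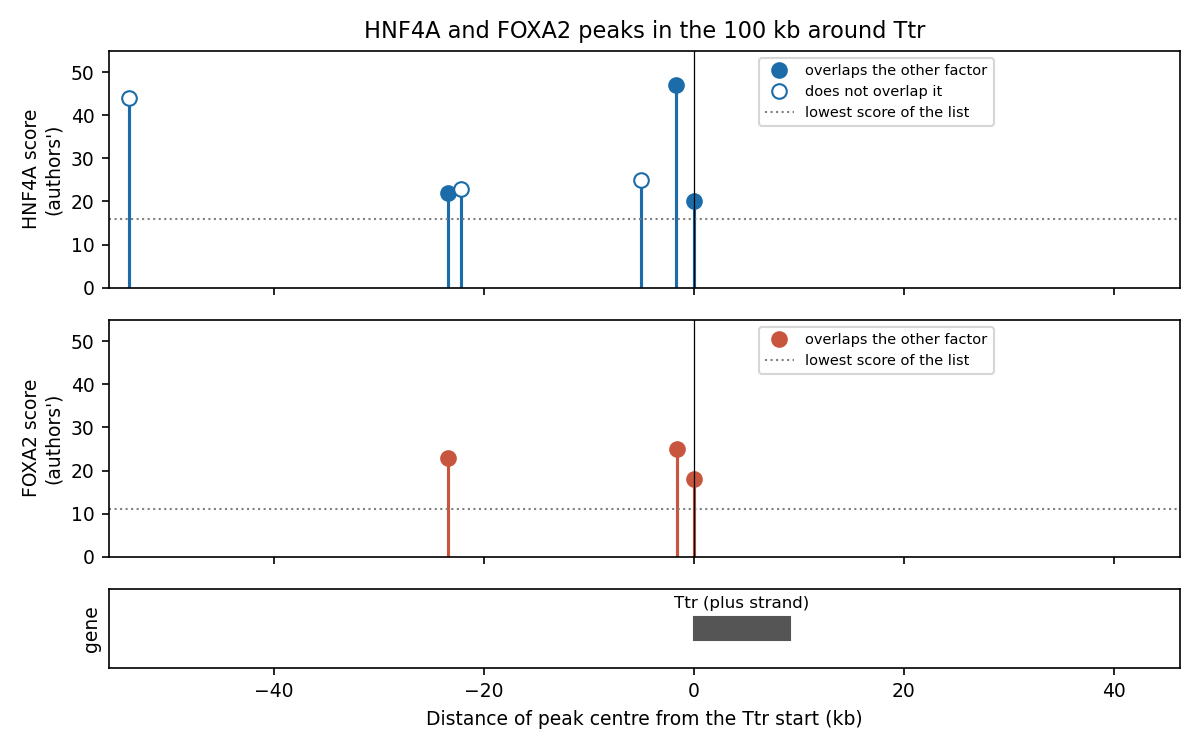
Score of each HNF4A peak (top) and FOXA2 peak (middle) against the distance of its centre from the Ttr start in kb, with the gene drawn to scale below. Filled circles overlap a peak of the other factor and open circles do not; dotted lines mark the lowest score of each list, 16 for HNF4A and 11 for FOXA2. All 9 peaks lie upstream of Ttr or over its start, and the highest of each factor, 47 and 25, lie 1.7 kb and 1.6 kb upstream.

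The pair 1.7 kb upstream had the highest score of the window for both factors. Its HNF4A peak lay at chr18:20821795-20822212, was 418 bp wide and had a score of 47. The score is the authors' whole-number value of a peak; it has no stated definition and was compared only within its list. This HNF4A peak ranked 1165 of 11703, with 77 peaks at the same score, and stood above 89.4% of the list. Its FOXA2 partner lay at chr18:20821895-20822238, was 344 bp wide and had a score of 25. It ranked 1735 of 9338, with 124 peaks at that score, and stood above 80.1% of the list. The peaks had 318 bp in common, and the FOXA2 centre lay 63 bp nearer to Ttr than the HNF4A centre. Neither peak contained the other. This site lies on the side of the gene where the classical enhancer is known, but the published boundaries of that element were not used here.

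The pair over the start of Ttr had the lowest score of the window for both factors. Its HNF4A peak lay at chr18:20823542-20823942, covering the start from 158 bp upstream to 242 bp downstream. Its score of 20 ranked 7251, with 664 peaks at the same score, and stood above 32.4% of the HNF4A list. The FOXA2 peak lay at chr18:20823462-20823950, from 238 bp upstream to 250 bp downstream of the start. Its score of 18 ranked 3197, with 362 peaks at that score, and stood above 61.9% of the FOXA2 list. The start peak thus scored below the median of the HNF4A list, which is 23, but above the median of the FOXA2 list, which is 15. Among shared peaks only, both were in the lower part: the HNF4A peak stood above 21.8% of HNF4A peaks shared with FOXA2, and the FOXA2 peak above 43.9% of FOXA2 peaks shared with HNF4A. Over all overlapping pairs the median scores were 27 for HNF4A and 19 for FOXA2.

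Over the start the HNF4A peak lay inside its FOXA2 partner, which was uncommon among overlapping pairs. The FOXA2 peak was 489 bp wide, wider than 84.9% of the whole FOXA2 list, and contained the whole HNF4A peak of 401 bp. The margin was small downstream, where the FOXA2 peak ended 250 bp and the HNF4A peak 242 bp past the start. In the series an HNF4A peak lay inside its FOXA2 partner in 250 of 2879 overlapping pairs, or 8.68% (95% Wilson interval 7.71 to 9.77%). The reverse, a FOXA2 peak inside its HNF4A partner, held for 993 pairs, or 34.5% (32.8 to 36.2%). By width alone, the FOXA2 peak was the narrower one in 2065 pairs, or 71.7% (70.1 to 73.3%). Wilson intervals here cover counting error only.

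**Figure D2:**
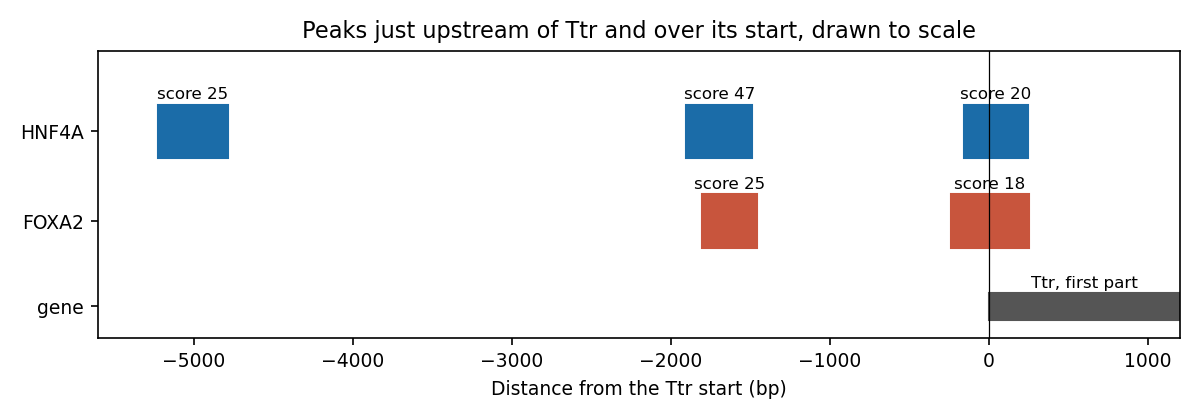
Peaks over the start of Ttr and in the first few kb upstream, drawn to scale against the distance from the start in bp, with HNF4A above FOXA2 and each score printed over its peak. FOXA2 has partners at the HNF4A peaks of score 47 and 20 and none at the HNF4A peak of score 25, which lies 5.0 kb upstream.

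The third shared position was a remote one, 23.4 kb upstream. Its HNF4A peak at chr18:20800055-20800482 had a score of 22, which stood above 43.2% of the HNF4A list. The FOXA2 peak at chr18:20800067-20800424 had a score of 23, which stood above 76.6% of the FOXA2 list. It lay wholly inside the HNF4A peak, with centres 23 bp apart. The scores of both factors followed the same order over the shared positions. They were highest 1.7 kb upstream, next 23.4 kb upstream and lowest over the start. With 3 positions this order is a description only.

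The standing of the factors differed between the positions. The FOXA2 peak stood higher in its list than its HNF4A partner over the start and 23.4 kb upstream, and lower 1.7 kb upstream. Over all 2879 pairs FOXA2 stood higher in 51.6% (49.8 to 53.4%). The pair 1.7 kb upstream was the only member pair with both scores above the list medians, as were 1204 of all pairs, or 41.8% (40.0 to 43.6%). Centre offsets of all pairs had a median of 59 bp and an interquartile range of 26.5 to 106 bp. At Ttr the offsets of 36 bp over the start and 63 bp at 1.7 kb upstream lay inside this range, and that of 23 bp at 23.4 kb upstream just below it.

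**Figure D3:**
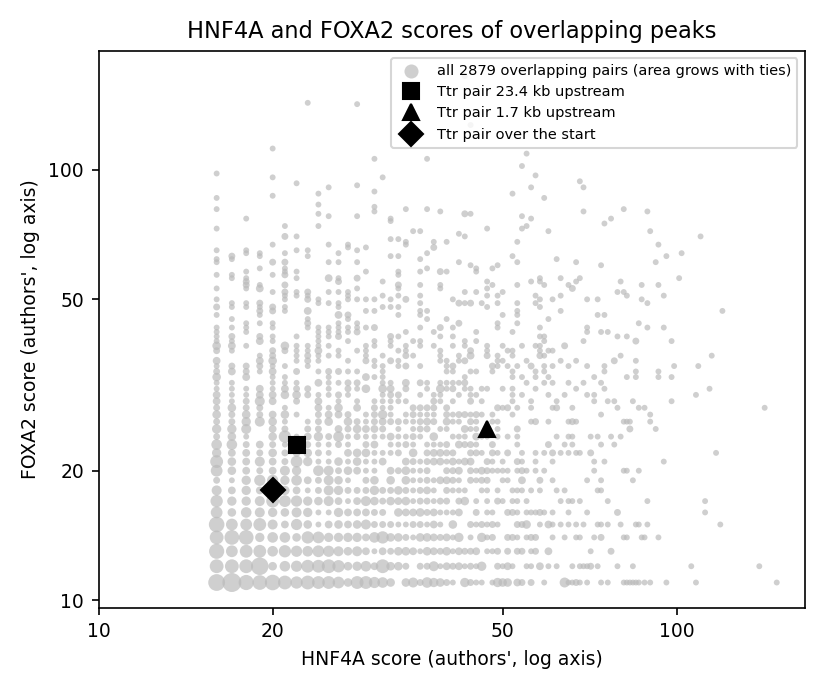
HNF4A score (x axis) against FOXA2 score (y axis), both on log axes, for all 2879 overlapping pairs in grey and the 3 pairs at Ttr in black. The pair 1.7 kb upstream (47 and 25) lies to the right of the pairs 23.4 kb upstream (22 and 23) and over the start (20 and 18), and many pairs of the series lie above all of them.

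Ranked by the lower of the HNF4A and FOXA2 percentiles, a measure that is high when both scores are, the pair 1.7 kb upstream took place 343 of 2879, above 87.6% of pairs. In all 15 pairs held that place, with the same lower percentile of 80.1. The pair 23.4 kb upstream took place 1342 and the pair over the start place 1642. One tied pair, at chr18:65656584-65656973 for HNF4A and chr18:65656690-65656991 for FOXA2, had the same scores of 47 and 25 and centres 62 bp apart. In the 25 pairs with an HNF4A score of 47, the Ttr pair included, the FOXA2 score ran from 13 to 73 with a median of 24. In the 63 pairs with a FOXA2 score of 25, the Ttr pair included, the HNF4A score ran from 16 to 92 with a median of 28. A FOXA2 partner was present at 39.6% of HNF4A peaks scoring 47 or more (37.0 to 42.4%, n = 1241). An HNF4A partner was present at 54.4% of FOXA2 peaks scoring 25 or more (52.1 to 56.6%, n = 1858).

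The HNF4A peaks without FOXA2 spanned nearly the same range of scores as the shared ones. The peak 5.0 kb upstream, at chr18:20818475-20818911, had a score of 25 and stood above 54.8% of the list. Its edge lay 2984 bp from the nearest FOXA2 peak, the one 1.6 kb upstream. The peak 22.2 kb upstream, at chr18:20801256-20801700, had a score of 23 and stood above 47.5% of the list. It lay 832 bp from the FOXA2 peak of the remote pair, on the side nearer to Ttr. The scores of the unshared peaks, 44, 25 and 23, overlapped those of the shared peaks, 47, 22 and 20. The FOXA2 list ends at a score of 11, so weaker FOXA2 signal at these positions would not be listed.

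The highest unshared HNF4A peak was also the member most remote from Ttr, 53.8 kb upstream at chr18:20769639-20770092. Its score of 44 stood above 87.3% of the list, and only 93 of its 454 bp lay inside the window. Just outside, 979 bp from the window's edge, was another HNF4A peak at chr18:20768072-20769021 with a score of 23 and no FOXA2 overlap. The member lay 29975 bp from the nearest FOXA2 peak. Which gene either of these peaks serves was not tested.

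**Figure D4:**
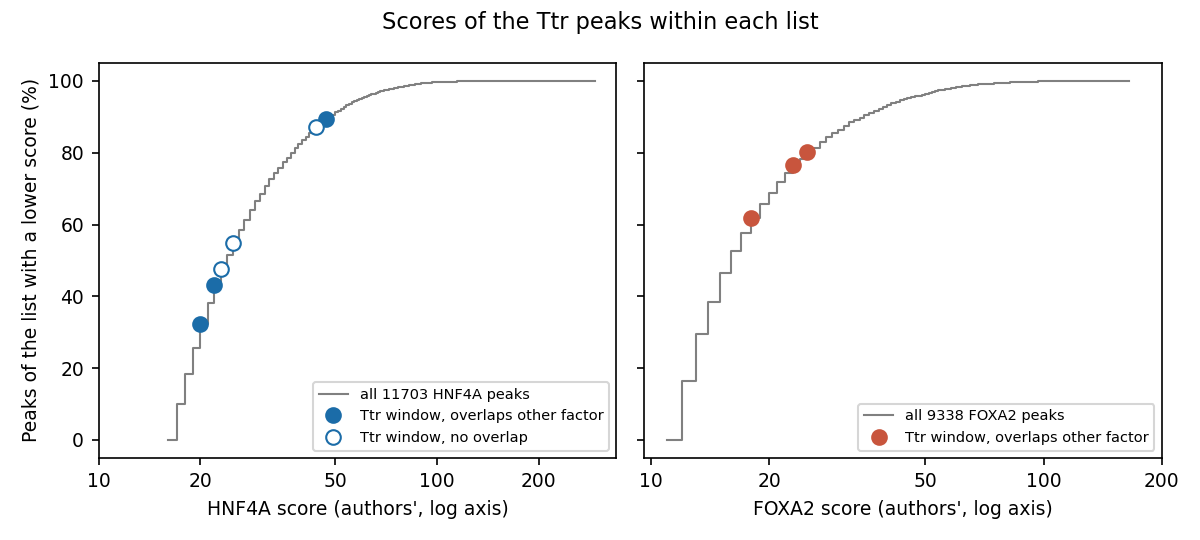
Percent of peaks with a lower score against score (log axis) for all 11703 HNF4A peaks (left) and all 9338 FOXA2 peaks (right) as grey steps, with the Ttr peaks as circles, filled where they overlap the other factor. The HNF4A members range from 32.4% to 89.4% and the FOXA2 members from 61.9% to 80.1%.

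Binding at Ttr was one-sided. No HNF4A or FOXA2 peak began within the 9.2 kb of the gene past its start, nor in the 46.3 kb from the start to the end of the window. The next HNF4A peak downstream, at chr18:20940996-20941338 with a score of 21, lay 117 kb from the start. The next FOXA2 peak downstream, at chr18:20995276-20995581 with a score of 13, lay 172 kb away. Neither overlapped the other factor. Gaps of this length were not rare: 31.6% of the gaps between successive HNF4A peaks were at least as long as the 117.1 kb left by the start peak. For FOXA2 33.7% were at least as long as its 171.3 kb. Upstream, the nearest FOXA2 peak outside the window, with a score of 27, was 112.3 kb from the start.

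Few shared regions of the series lay as close together as those next to Ttr. The merged region over the start and the one 1.7 kb upstream had centres 1690 bp apart. Of 2850 shared regions in the series, 100 had another shared region this near, or 3.51% (2.89 to 4.25%). Joining peaks of either factor at most 10 kb apart gave a group of 3 HNF4A and 2 FOXA2 peaks over 5.48 kb, from the peak 5.0 kb upstream to the start. Both peaks of an overlapping pair were counted, so these 5 peaks lie at 3 positions. Of 13178 such groups in the series, 341 held at least 5 peaks, or 2.59%. Single peaks count as groups here, and 4584 groups, or 34.8%, held at least 2 peaks. The remote pair and its unshared neighbour formed a separate group of 3 peaks over 1.65 kb. The spacing and group size compared were those of Ttr itself, a locus chosen as a known target. The shares therefore describe Ttr and do not test it.

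The window was set beside the nuclear genome divided into consecutive windows of 100 kb, of which 8477 held a peak of either factor. This grid includes the Ttr locus itself. By peak centres the Ttr window held 5 HNF4A peaks, since the most remote member is centred outside it, and 3 FOXA2 peaks. As many HNF4A peaks were found in 319 windows, or 3.76%, and as many FOXA2 peaks in 716, or 8.45%. As many as 3 overlapping pairs were found in 103 windows, or 1.22%. These shares depended on the windows chosen: among windows centred on each HNF4A peak, 17.3% held as many HNF4A peaks and 4.5% as many pairs. Taken separately for each count, the medians over windows were 1 HNF4A peak, 1 FOXA2 peak and 0 pairs. The highest values, not necessarily from the same window, were 12 HNF4A peaks, 36 FOXA2 peaks and 6 pairs. The Ttr window was centred near a chosen gene whereas the others followed a fixed grid, so these shares place Ttr among windows and do not test it.

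**Figure D5:**
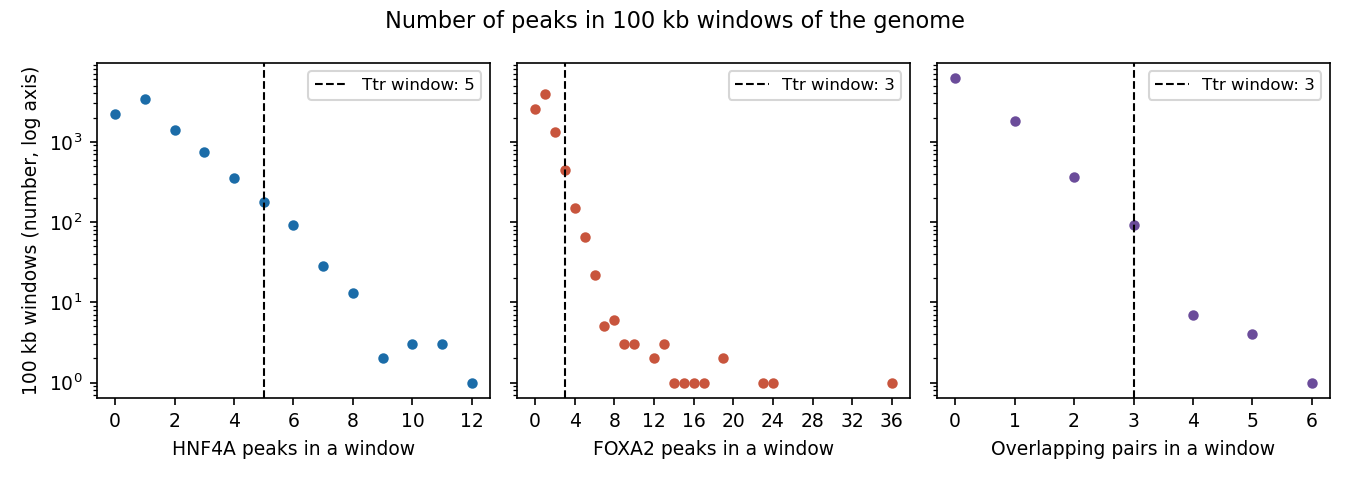
Number of 100 kb windows (log axis) against the HNF4A peaks, FOXA2 peaks and overlapping pairs in a window, over 8477 occupied windows; dashed lines mark the Ttr window at 5, 3 and 3. Most windows hold fewer of each than the Ttr window, and the highest values are 12, 36 and 6.

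Input chromatin gave no region near Ttr. This was the usual case: of 8477 windows of 100 kb with a peak of either factor, only 189, or 2.23%, held an input region. The nearest input region to any member was 16.6 Mb away, and chromosome 18 held 19 input regions in all. On that chromosome 24.1% of 382 HNF4A peaks overlapped FOXA2 (20.1 to 28.6%), and 32.2% of 286 FOXA2 peaks overlapped HNF4A (27.0 to 37.8%). These intervals include the shares of 24.4% and 30.7% found over the whole lists. The whole lists contain the peaks of chromosome 18, so this is a description and not a test.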

How the data were processed

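Each library has a headerless list of regions deposited by the authors, giving chromosome, start, end and a whole-number score. Per the submitters' processing notes the genome is mm9. Alignment, peak calling, the threshold and what the score means are not stated in the sources used here, and library depth is unknown. Mitochondrial peaks stayed in the ranking.

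Positions were read as 1-based with both ends included. Peaks overlapping the window by at least 1 bp were members. A rank gives tied scores their best place, and a percentile is the percent of the list with a strictly lower score. Distances run from the peak centre to the Ttr start. The members and the comparisons were chosen with earlier results of these data known. Named items were Ttr, its neighbours in the gene table, every peak of the window, the nearest peaks outside it and pairs next to the top Ttr pair in the ranking; of the latter, the tied pair with equal scores was picked after its values were seen. A planned search for HNF4 and forkhead motifs in the Ttr promoter was not run, as its sequence was not used here. The interval functions were tested on simulated data in 5 runs against brute-force counts. Computation used scipy 1.17.1, pandas 2.3.3 and numpy 2.4.6 under Python 3.11.15, and plots used matplotlib 3.10.9.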

Additional observations from a re-analysis of the deposited data

How the results depend on the processing

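The 3 overlapping pairs at Ttr were counted again when most of the shorter peak had to be covered, when centres had to lie at most 100 bp apart and when a gap of 200 bp was allowed. With peaks at or above the median score of their list the count was 1, the pair 1.7 kb upstream, because the other pairs hold an HNF4A peak below the median of 23. The gene with 10 kb on either side held 3 HNF4A peaks in place of 6, because the remote members lie farther upstream. The other 12 of 14 alternatives for counts stayed within 1.5 times the reported value. For the HNF4A peak 1.7 kb upstream, the reported 89.4% became 90.0% with tied scores counted as lower, 90.8% among peaks of chromosome 18 and 82.8% among peaks shared with FOXA2. For its FOXA2 partner the reported 80.1% became 81.4%, 76.2% among peaks of that chromosome and 64.8% among peaks shared with HNF4A. Of 24 such alternatives over all members, 20 moved the percentile beyond its Wilson interval. That interval served only as a yardstick, because a percentile is an exact place in a complete list. Counting tied scores as lower moved the percentile of every member beyond it. All 36 alternatives for distances, 2 of them per peak with the start moved by 100 bp and chosen after seeing the data, moved by at most the distance from the peak's centre to its edge; over the start, the sign of the small centre offset changed. Windows centred on each HNF4A peak, in place of the grid, held as many HNF4A peaks in 17.3% and as many pairs in 4.5% of cases. Each such window holds an HNF4A peak by construction, and a dense region is counted anew for each of its HNF4A peaks. No paired analysis was possible because each group is 1 library. Whole-number scores tie often, and unknown depth limits what the low-scoring pair over the start and the unshared peaks can show.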
